A study of Mus musculus with 70 samples.

Results

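The complement genes described here are the 9 rows of the estimated count table with the symbols C1ra, C1s1, Masp1, C4b, C2, C3, Cfb, Serping1 and Cd55, of 35197 gene rows in all. They were followed in 8 mouse cancer cell lines, each stimulated for 48 h with interferon gamma (IFNg, 100 ng per mL) or interferon beta (IFNb, 1000 activity units per mL), or left without either (NS). The lines stand for melanoma (B16.1, YUMMER1.7) and for cancers of the colon and rectum (CT26.2, MC38.7), the pancreas (KPC.2, Panc02.3), the lung (LLC) and the kidney (Renca). CT26.2 and Renca derive from BALB/c mice and the others from C57BL/6 mice, and all were grown in DMEM with 10% serum. Of the 24 groups of line and treatment, 22 held 3 libraries, and LLC with IFNg and Renca without cytokine held 2 each. Since no label says that replicates came from separate cultures, p-values here reflect only how far libraries of a group lay apart, and that spread may be technical.

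Complement is a cascade of secreted proteases and substrates, made mostly by the liver but also by many other cells. The classical pathway starts when C1q binds a target and activates the proteases C1r and C1s, and the lectin pathway uses the MASP proteases in their place. Both cleave C4 and C2 into a convertase that splits C3, and the alternative pathway builds its own C3 convertase from C3 and factor B. C1 inhibitor (encoded by Serping1) blocks the starting proteases, and decay-accelerating factor (encoded by Cd55) takes C3 convertases apart on the cell surface.

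All 9 genes were among the 16147 kept by edgeR's low-count filter, but Serping1 and Cd55 passed through a few groups in which they were high. Total counts per library ran from 668355 to 28550816, with a median of 8644887, and the smallest was replicate 3 of KPC.2 with IFNb. Levels are given in CPM, that is counts relative to the TMM-scaled library size, which are not corrected for transcript length and so are compared between groups and not between genes. A gene is said to have risen or fallen where its adjusted p was under 0.05 in edgeR's quasi-likelihood test, adjusted over all genes tested. Irf1, an interferon-response transcription factor, rose with IFNg in all 8 lines, by 2.88 (MC38.7) to 6.04 (B16.1) on the log2 scale. Isg15, a ubiquitin-like protein induced by interferons, rose with IFNb in 7 lines, by 0.52 (CT26.2) to 9.24 (LLC), and had a log2 fold change of -0.20 ± 0.09 (SE) in YUMMER1.7, whose mean Isg15 level in NS cells (644 CPM) was the highest of the NS groups. In the leukocyte and macrophage list, Ptprc, Adgre1 and Cd3e did not exceed 7 counts in any group, while Cd68 reached 1969 counts and Lyz2 362, both in Renca. Endothelial markers summed to at most 25.6 CPM in any library, and the hepatocyte markers summed to at most 2.02 CPM in any library. Melanocyte markers summed to 9124 to 20389.7 CPM in B16.1 but to 14.99 to 25.8 CPM in YUMMER1.7. Epithelial markers summed to 0.92 to 2.15 CPM in MC38.7 and to 26.9 to 37.4 CPM in CT26.2, against 5300.5 to 9700.1 CPM in KPC.2. In each CT26.2 group 1 of the 5 epithelial markers, Krt18, was above 3 counts. The labelled tissue was thus not visible from the marker lists in YUMMER1.7 and MC38.7, and in CT26.2 it rested on Krt18 alone.

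On the mean of the 8 lines, 6 of the 9 genes rose with IFNg (C1ra, C1s1, C4b, C2, C3 and Cfb) and Masp1 fell, where 18.3% of all tested genes rose and 23.7% fell. With IFNb, 5 rose (C1ra, Masp1, C4b, C2 and Cfb) and 0 fell (edgeR, also 0 at an unadjusted p under 0.05, and 1 by DESeq2 and 1 by limma-voom, in both cases C3), where 13% and 17.3% of all tested genes did. Across the 72 pairs of line and gene, 42 rose and 4 fell with IFNg, against 12% and 12.4% of all pairs of line and tested gene. With IFNb, 24 pairs rose and 7 fell, against 7.66% and 8.21% of all such pairs. The median log2 fold change of the 9 genes on the mean of the lines was 1.54 with IFNg and 0.59 with IFNb, beside -0.04 and -0.02 over all tested genes. Set directly against IFNb, IFNg gave higher levels in 36 pairs and lower levels in 8, where 13.9% and 12.6% of all pairs did. Each cytokine was given at a single dose and in its own unit. In every comparison of IFNg with IFNb, kind and strength of stimulus therefore cannot be told apart. Without Serping1 and Cd55, which entered the test through the groups where they are high, 37 of 56 pairs rose and 4 fell with IFNg, 24 rose and 7 fell with IFNb, and IFNg was higher than IFNb in 32 and lower in 8. These are comparisons of bulk RNA, in which fewer expressing cells and less RNA per cell cannot be told apart.

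**Figure D1:**
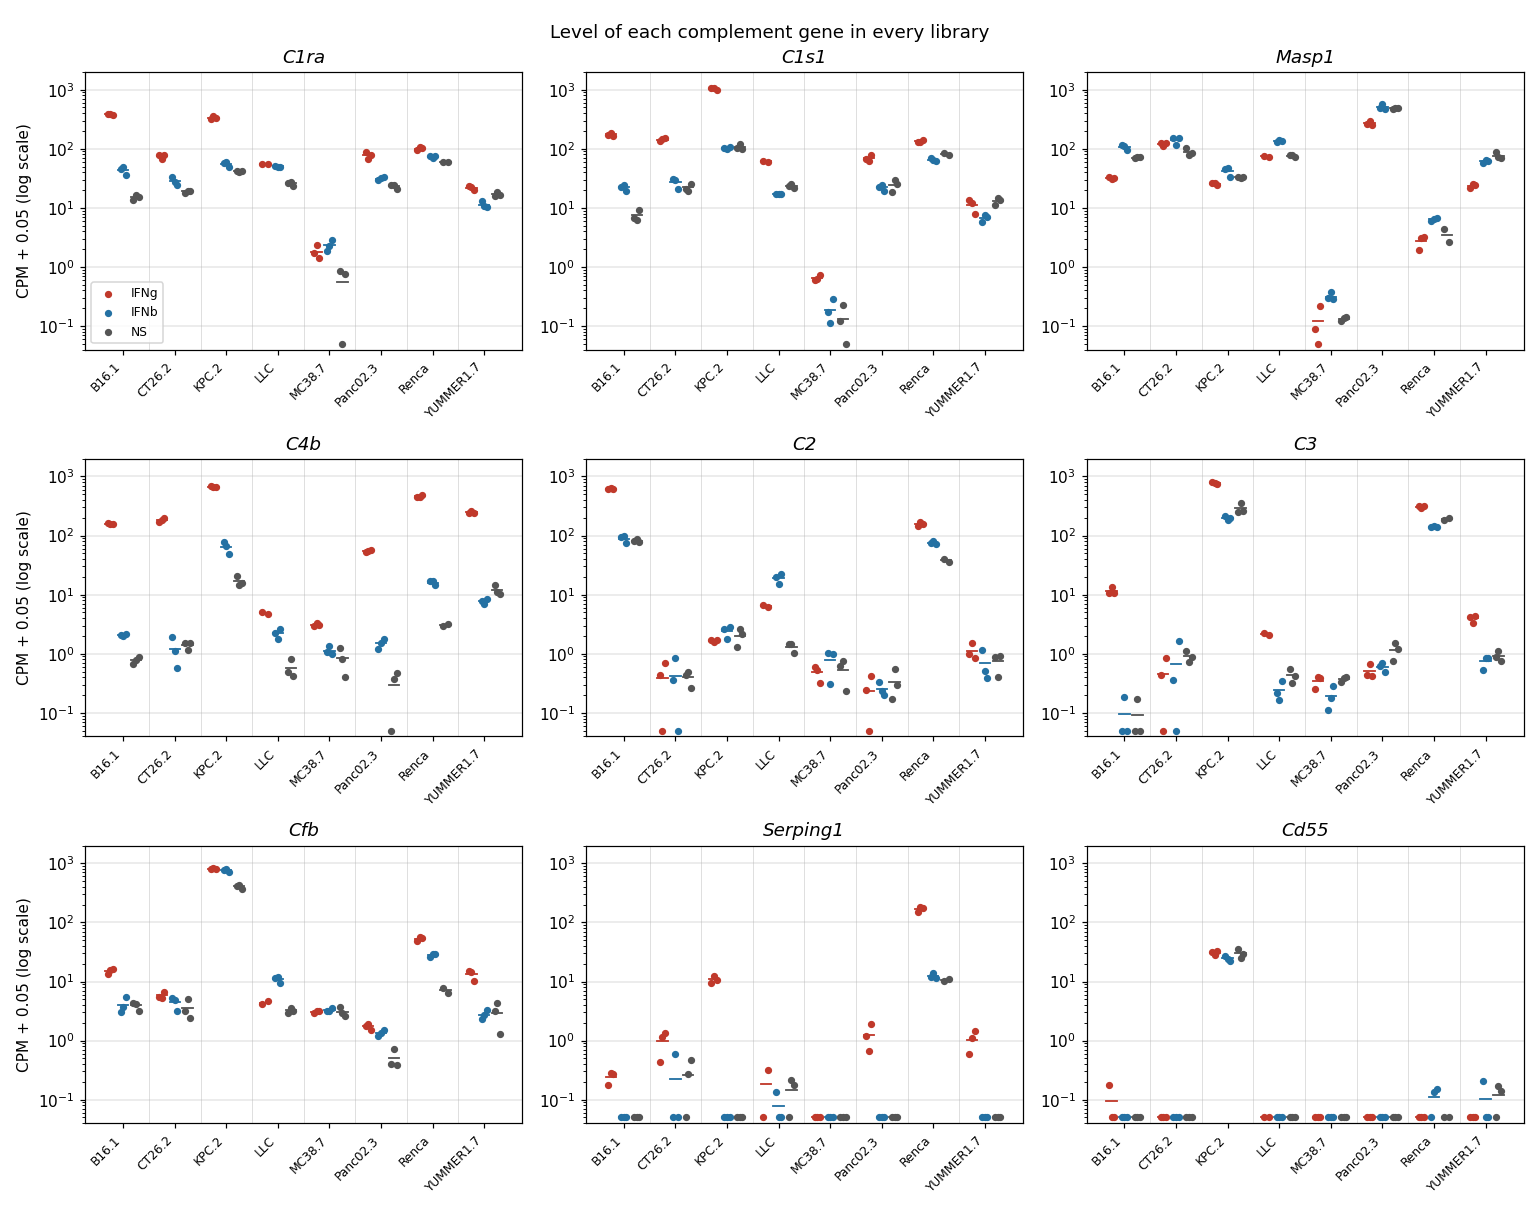
Level of each of the 9 complement genes in every library, by cell line, with IFNg left, IFNb in the middle and NS right within each line. Points are libraries (CPM + 0.05, log axis) and short lines are group means. C4b stands higher with IFNg in all 8 lines, Masp1 is highest in Panc02.3, and Cd55 is above 3 counts in KPC.2 groups and in no other.

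The RefSeq start-site windows of C1ra, C1s1 and C3 are shown because C1ra and C1s1, which lie next to each other on chromosome 6, had closely matching levels across the 24 groups, and because C3 differed in direction between the 2 cytokines in some lines. Each window runs from 250 bases before to 50 bases after the start site, 5′ to 3′ on the gene's strand, with matches to the searched motifs in capitals (RefSeq sequence, build GRCm38.p6).
C1ra, chr6:124512371-124512670, plus strand: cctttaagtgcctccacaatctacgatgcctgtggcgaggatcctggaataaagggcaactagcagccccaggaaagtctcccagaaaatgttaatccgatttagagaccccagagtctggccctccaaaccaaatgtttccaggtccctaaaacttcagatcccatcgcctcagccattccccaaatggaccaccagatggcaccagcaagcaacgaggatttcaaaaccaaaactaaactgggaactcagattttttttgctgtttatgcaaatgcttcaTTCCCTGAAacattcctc
C1s1, chr6:124542272-124542571, minus strand: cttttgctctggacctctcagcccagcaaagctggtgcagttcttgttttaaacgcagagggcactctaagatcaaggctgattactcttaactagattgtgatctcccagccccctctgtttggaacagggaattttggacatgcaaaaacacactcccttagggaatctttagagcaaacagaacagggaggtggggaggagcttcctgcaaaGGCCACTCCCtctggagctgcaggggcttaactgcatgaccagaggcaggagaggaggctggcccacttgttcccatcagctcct
C3, chr17:57228087-57228386, minus strand: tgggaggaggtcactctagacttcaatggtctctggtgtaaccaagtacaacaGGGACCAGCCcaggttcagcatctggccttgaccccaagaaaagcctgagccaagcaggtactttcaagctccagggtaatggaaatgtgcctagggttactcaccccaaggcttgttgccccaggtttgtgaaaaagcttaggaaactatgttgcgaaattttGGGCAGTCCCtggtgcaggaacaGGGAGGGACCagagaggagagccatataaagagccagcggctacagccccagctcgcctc

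The motifs searched on both strands were the GAS element TTCNNNGAA, the interferon-response core GAAANNGAAA and the NF-kB site GGGANNNNCC. The C1ra window held a GAS match whose first base was 33 bases after the RefSeq start site. By the GRCm38 annotation C1ra begins at 124512405, inside this window and before the RefSeq start site. The match thus lies within the annotated gene. The C1s1 window held an NF-kB match on the opposite strand, 35 bases before the start site used here and 4 bases after another start site that RefSeq gives for the gene. The C3 window held 3 NF-kB matches, at 197, 33 and 10 bases before the start, the middle of them on the opposite strand. The Cd55 window, which is not shown, also held an NF-kB match, 61 bases before the start. Of the 32851 windows of the same length in the table, 8.3% held the GAS letters, 3.44% the interferon-response core and 20.7% the NF-kB letters, and the interferon-response core was in none of the windows found for these genes. Windows were found for 4 of the 9 genes (C1ra, C1s1, C3 and Cd55), and C4b, C2, Cfb, Serping1 and Masp1 are named only. A match describes the letters of the window and is no measurement of binding.

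The starting proteases of the classical pathway, C1ra and C1s1, rose with IFNg in 8 and 7 of the 8 lines. C1ra (chr6:124512405-124523443, plus strand, GRCm38) rose with IFNg in all 8 lines, and its mean log2 fold change over the lines was 1.93 ± 0.05 (SE, adjusted p = 3.43e-38). In B16.1 it stood at 392.03, 393 and 373 CPM with IFNg, at 45.5, 49.7 and 35.8 CPM with IFNb and at 13.6, 16.3 and 14.99 CPM in NS cells. The 3 groups did not overlap, and the log2 fold change was 4.69 ± 0.10 for IFNg against NS and 1.56 ± 0.12 for IFNb against NS. KPC.2 followed, with 318, 359 and 334 CPM with IFNg, 57.5, 59.1 and 49.2 CPM with IFNb and 41.7, 40.4 and 41.5 CPM in NS cells. There too the groups were apart, with log2 fold changes of 3.03 ± 0.09 for IFNg and 0.47 ± 0.12 for IFNb. The smallest IFNg response was in YUMMER1.7 (23.4, 22.4 and 20.04 CPM with IFNg, 12.99, 10.6 and 10.4 CPM with IFNb and 16.0, 18.6 and 16.3 CPM in NS cells), where C1ra rose by 0.39 ± 0.13 with IFNg and fell by 0.60 with IFNb (SE 0.14, adjusted p = 0.0106). The IFNg call was lost when replicate 1 or 3 of every group was left out (0.30 and 0.40) and with a replicate block (0.37). The IFNb call was lost without replicate 1, 2 or 3 (-0.70, -0.47 and -0.57) and in limma-voom (-0.60).

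IFNb raised C1ra in the other 7 lines, by 0.30 ± 0.10 (Renca) to 2.01 ± 0.37 (MC38.7). The Renca call was lost without replicate 1, 2 or 3 (0.29, 0.34 and 0.30) and with a replicate block (0.30), as were those of CT26.2 without replicate 1 (0.42) and KPC.2 without replicate 1 or 2 (0.50 and 0.44). That of Panc02.3 was lost without replicate 3 (0.32) and with the line fitted alone (0.44). In LLC both cytokines gave like levels, 56.0 and 54.4 CPM with IFNg, 51.6, 49.5 and 49.9 CPM with IFNb and 26.4, 27.8 and 23.3 CPM in NS cells. The difference of IFNg from IFNb was 0.13 ± 0.10 in LLC and -0.28 ± 0.24 in MC38.7 (adjusted p = 0.342 and 0.425), while IFNg was higher in the other 6 lines. MC38.7 had the lowest C1ra of all lines, with 1.67, 2.27 and 1.37 CPM with IFNg, 1.82, 2.25 and 2.81 CPM with IFNb and 0.789, 0 and 0.721 CPM in NS cells, and its IFNg rise was not called without replicate 2 (0.98). Without cytokine the order ran from Renca (60.0 ± 0.94 CPM, SD) and KPC.2 (41.2 ± 0.71) through LLC, Panc02.3, CT26.2, YUMMER1.7 and B16.1 (14.9 ± 1.34) to MC38.7 (0.503 ± 0.437). The neighbours LLC and Panc02.3 overlapped, as did CT26.2 with YUMMER1.7 and YUMMER1.7 with B16.1.

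C1s1 (chr6:124530345-124542359, minus strand), which encodes the protease that cleaves C4 and C2, rose with IFNg in 7 lines, with a mean log2 fold change of 2.08 ± 0.09 (adjusted p = 3.31e-28). It was highest in KPC.2, at 1061, 1069 and 974 CPM with IFNg, 104, 98.2 and 108 CPM with IFNb and 102, 122 and 99.2 CPM in NS cells. The IFNg libraries stood far above the rest, and the IFNb libraries overlapped the NS range (log2 fold change 3.26 ± 0.09 for IFNg and -0.08 ± 0.11 for IFNb). In B16.1 it had 174, 186 and 166 CPM with IFNg, 22.8, 24.5 and 18.9 CPM with IFNb and 6.60, 6.28 and 9.27 CPM in NS cells. B16.1 was the only line in which C1s1 rose with IFNb (1.57 ± 0.16), and it fell with IFNb in LLC (-0.46 ± 0.11), Renca (-0.30 ± 0.10, lost without replicate 1, 2 or 3, at -0.31, -0.22 and -0.32, and with a replicate block, at -0.31) and YUMMER1.7 (-0.95 ± 0.17, lost without replicate 2, at -0.92). On the mean of the lines the IFNb change of C1s1 was 0.05 ± 0.15, which did not pass the test.

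C1s1 was higher with IFNg than with IFNb in all 8 lines, by 0.77 ± 0.18 (YUMMER1.7) to 3.34 ± 0.10 (KPC.2), though not without replicate 1 in YUMMER1.7 (0.50) nor without replicate 1 or 2 in MC38.7 (2.50 and 2.01). YUMMER1.7 was the line without an IFNg rise, with 13.8, 12.0 and 7.94 CPM with IFNg, 5.61, 7.38 and 7.06 CPM with IFNb and 11.3, 14.9 and 13.4 CPM in NS cells. Its IFNg and NS libraries overlapped, and the log2 fold change was -0.18 ± 0.16 (adjusted p = 0.484). In MC38.7, C1s1 summed to 47 counts with IFNg, 4 with IFNb and 3 in NS cells, a ratio of IFNg to NS of 7.44 with a counting interval of 2.39 to 37.4, and the call was lost without replicate 1 or 3. Over the 24 groups the mean log2 CPM of C1ra and C1s1 had a Pearson r of 0.954, which is a description of groups that share lines and cytokines. The genes outside the list most like C1ra by that measure were Zfp758 (r = 0.892), Gm45871 (0.889) and C1rl (0.867), and those most like C1s1 were Rbpms (0.893), Zfp758 (0.886) and Rhbdf2 (0.877).

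The reads of both genes can be shared with near copies. Of the 31-base words in the annotated C1ra transcript, 56.9% also occur in C1rb, and 33.5% of those of C1s1 occur in C1s2, so the split of reads between each pair is uncertain. C1rb reached at most 347 counts in a group and C1s2 at most 210, against 9772 for C1ra and 22749 for C1s1.

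Masp1 (chr16:23449417-23520815, minus strand), the lectin-pathway protease, behaved unlike the others. On the mean of the lines it fell with IFNg (-0.50 ± 0.18, adjusted p = 0.019) and rose with IFNb (0.59 ± 0.12, adjusted p = 9.46e-05). The fall on the mean was not called without replicate 1 or replicate 2 of every group (-0.43 and -0.41). It fell with IFNg in B16.1, KPC.2, Panc02.3 and YUMMER1.7 and rose in CT26.2 (0.41 ± 0.10). The CT26.2 call was lost without replicate 3 (0.34) and with the line fitted alone (0.44), and that of KPC.2 without replicate 1 or 3 (-0.39 and -0.30). In B16.1 it had 33.2, 31.2 and 32.1 CPM with IFNg, 117, 113 and 96.6 CPM with IFNb and 68.8, 71.6 and 71.7 CPM in NS cells. The NS libraries thus lay between those of the 2 cytokines with no overlap, with log2 fold changes of -1.14 ± 0.10 for IFNg and 0.63 ± 0.09 for IFNb.

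Panc02.3 had the highest Masp1 of any line, with 261, 296 and 250 CPM with IFNg, 497, 568 and 479 CPM with IFNb and 475, 495 and 488 CPM in NS cells. Its IFNg libraries were all below the others (-0.85 ± 0.08), and its IFNb and NS libraries overlapped (0.08 ± 0.08, adjusted p = 0.636). The 4 fibroblast markers (Col1a1, Pdgfra, Pdgfrb and Thy1) were above 3 counts in each Panc02.3 group and summed to 32.6 to 33.8 CPM with IFNg, 351 to 386 CPM with IFNb and 429 to 536 CPM in NS cells. In YUMMER1.7 they summed to 616 to 652 CPM with IFNg, 702 to 723 CPM with IFNb and 700.4 to 768 CPM in NS cells. Over all treatments they summed to 150 to 216 CPM in MC38.7, where Masp1 was lowest. In CT26.2, where Masp1 rose with IFNg, they summed to 158 to 256 CPM. LLC had sums of 7.88 to 17.1 CPM, and no library of B16.1, KPC.2, LLC or Renca was above 33.5 CPM. The 4 markers did not go together. In NS cells of Panc02.3, Col1a1 averaged 346 CPM and Pdgfrb 131 CPM, against 9.27 CPM for Pdgfra. In NS cells of MC38.7, Pdgfra averaged 133 CPM and Pdgfrb 34.5 CPM, against 0.135 CPM for Col1a1. Thy1 averaged at most 2.36 CPM in any group. The part of the fibroblast markers in the Masp1 levels and changes was not tested. In YUMMER1.7, where the fall with IFNg was -1.69 ± 0.11, Masp1 stood at 21.5, 24.9 and 24.6 CPM with IFNg, 57.4, 65.5 and 60.9 CPM with IFNb and 86.6, 72.0 and 71.0 CPM in NS cells. In LLC it had 74.7 and 73.5 CPM with IFNg, 131, 143 and 133 CPM with IFNb and 77.1, 78.4 and 71.8 CPM in NS cells. LLC therefore showed a rise with IFNb (0.84 ± 0.08) and overlapping IFNg and NS libraries (-0.03 ± 0.09). Masp1 also rose with IFNb in CT26.2 (0.62 ± 0.09), Renca (0.83 ± 0.22) and KPC.2 (0.43 ± 0.13, adjusted p = 0.039), although in KPC.2 the libraries of the IFNb and NS groups overlapped and the call was lost without replicate 1, 2 or 3 (0.44, 0.37 and 0.49). The Renca call was lost without replicate 3 (0.51), in limma-voom (0.85) and with the line fitted alone (0.86).

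Masp1 was lower with IFNg than with IFNb in 6 lines and in none higher, and CT26.2 (-0.21 ± 0.10) and MC38.7 (-1.67 ± 0.75, on 6 and 10 counts) did not pass. Without cytokine it ran from 486 ± 9.8 CPM (SD) in Panc02.3 through CT26.2, YUMMER1.7, LLC, B16.1 and KPC.2 (33.1 ± 0.74) to Renca (3.45 ± 1.18) and MC38.7 (3 counts in all). The 3 lines CT26.2, YUMMER1.7 and LLC overlapped in turn. No near copy of Masp1, C3 or Serping1 was searched. Genes with a pattern like that of Masp1 over the 24 groups included Cadm1 (r = 0.874) and Psrc1 (0.861).

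**Figure D2:**
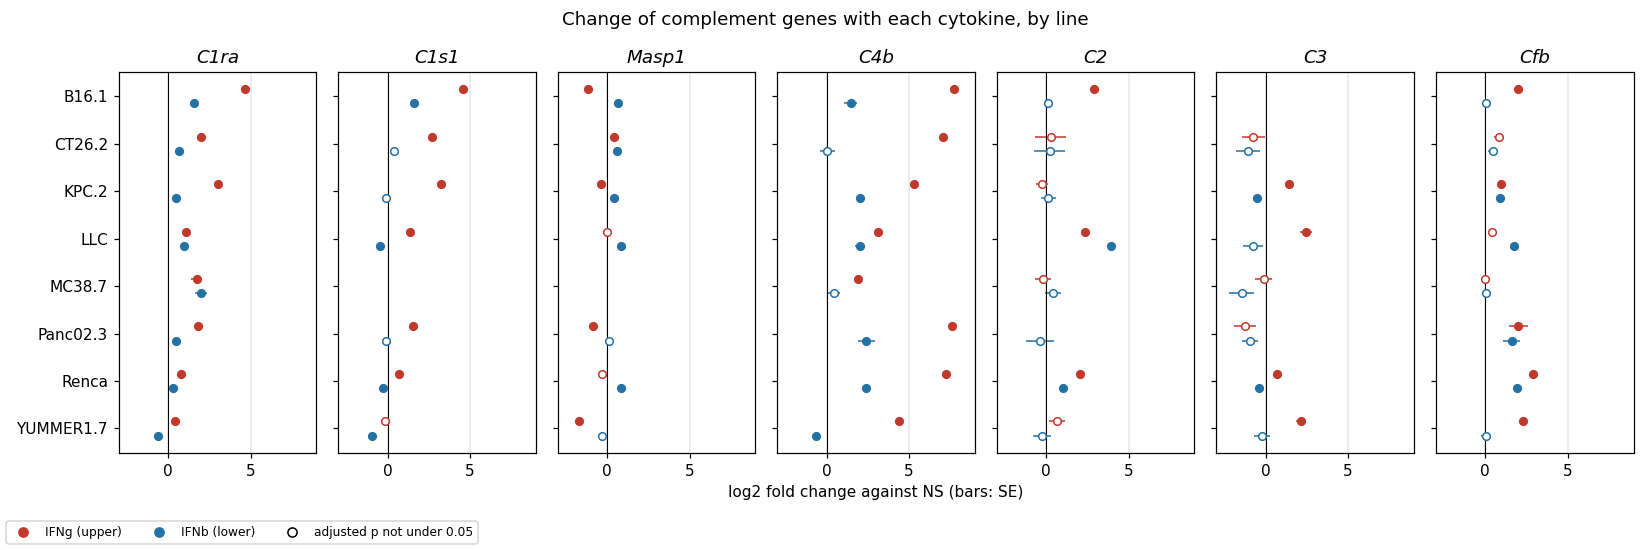
Log2 fold change against NS for IFNg (upper point of each line) and IFNb (lower point) in 7 complement genes, with bars for the SE and open points where the adjusted p was not under 0.05; groups of 3 or fewer counts are left out. C4b has filled IFNg points in all 8 lines, from 1.89 in MC38.7 to 7.73 in B16.1, and Masp1 is the gene whose called IFNg points are mostly left of 0.

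C4b (chr17:34728380-34743882, minus strand), the mouse gene for complement component C4, had the largest mean IFNg response of the 9, with a log2 fold change of 5.55 ± 0.07 (adjusted p = 7.49e-57) and a rise in all 8 lines. KPC.2 had 698, 668 and 659 CPM with IFNg, 79.1, 65.7 and 49.2 CPM with IFNb and 21.0, 14.3 and 15.7 CPM in NS cells. The 3 groups were apart, with log2 fold changes of 5.29 ± 0.10 for IFNg and 2.01 ± 0.12 for IFNb. In B16.1 the levels were 166, 158 and 155 CPM with IFNg, 2.003, 1.99 and 2.12 CPM with IFNb and 0.623, 0.739 and 0.833 CPM in NS cells, and in Panc02.3 they were 52.5, 55.6 and 57.7 CPM with IFNg, 1.13, 1.45 and 1.76 CPM with IFNb and 0, 0.331 and 0.415 CPM in NS cells. In both lines the NS libraries were below 1 CPM and apart from the IFNg libraries, with log2 fold changes of 7.73 ± 0.16 in B16.1 and 7.63 ± 0.24 in Panc02.3. With IFNb C4b rose by 1.44 in B16.1 and 2.40 in Panc02.3, and both calls were lost without replicate 2 (1.47 and 2.50).

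Renca had 441, 456 and 480 CPM with IFNg, 16.7, 16.8 and 14.3 CPM with IFNb and 2.89 and 3.16 CPM in NS cells. CT26.2 had 168, 186 and 198 CPM with IFNg, 1.88, 1.07 and 0.526 CPM with IFNb and 1.45, 1.12 and 1.48 CPM in NS cells. The IFNb libraries of Renca were all above its NS libraries (2.41 ± 0.18), whereas those of CT26.2 overlapped NS (0.04 ± 0.48, adjusted p = 1). YUMMER1.7 had 242, 261 and 244 CPM with IFNg, 7.86, 6.92 and 8.32 CPM with IFNb and 14.6, 11.3 and 10.1 CPM in NS cells. It was the line in which C4b fell with IFNb (-0.63 ± 0.15, adjusted p = 0.0127), the same line in which Isg15 did not pass the IFNb test, and this call was lost without replicate 1 or 2 (-0.45 and -0.56) and by limma-voom (-0.61).

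The smallest C4b responses were in LLC (5.08 and 4.61 CPM with IFNg, 2.18, 1.699 and 2.63 CPM with IFNb, 0.439, 0.759 and 0.373 CPM in NS cells) and MC38.7 (2.91, 3.32 and 2.99 CPM with IFNg, 1.03, 1.28 and 0.938 CPM with IFNb, 1.22, 0.777 and 0.361 CPM in NS cells). IFNg libraries were the highest in both lines, by 3.13 ± 0.25 in LLC and 1.89 ± 0.26 in MC38.7 against NS. IFNb raised C4b in LLC (2.04 ± 0.31) but did not pass in MC38.7 (0.46 ± 0.36). Set against IFNb, IFNg gave more C4b in all 8 lines, by 1.09 ± 0.20 (LLC) to 7.02 ± 0.18 (CT26.2). Of the 31-base words of C4b transcripts, 48.3% occur also in C4a, a near copy that was not analysed here, so reads of either could be counted under C4b. The genes most like C4b over the 24 groups were the guanylate-binding proteins Gbp10 (r = 0.867) and Gbp11 (0.865) and BC023105 (0.862).

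C2 (chr17:34862604-34898265, minus strand), the protease that joins C4 in the classical C3 convertase, changed in 3 lines. In B16.1 it had 621, 637 and 617 CPM with IFNg, 93.5, 98.0 and 75.6 CPM with IFNb and 81.3, 86.5 and 79.3 CPM in NS cells. The IFNg libraries were far above (2.92 ± 0.09), and the IFNb and NS libraries overlapped (0.12 ± 0.09). Renca had 145, 168 and 157 CPM with IFNg, 74.7, 80.4 and 72.0 CPM with IFNb and 39.9 and 36.2 CPM in NS cells, a stepwise order with log2 fold changes of 2.04 ± 0.10 for IFNg and 0.99 ± 0.10 for IFNb. LLC had the reverse order of the cytokines, with 6.60 and 6.24 CPM with IFNg, 19.7, 15.3 and 21.9 CPM with IFNb and 1.39, 1.41 and 0.993 CPM in NS cells. C2 in LLC rose by 2.33 ± 0.21 with IFNg and by 3.92 ± 0.17 with IFNb, and the difference of IFNg from IFNb was -1.60 ± 0.13 (adjusted p = 5.68e-15).

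In the other 5 lines C2 averaged no more than 2.35 CPM in any group and no contrast passed in edgeR, in DESeq2 or in limma-voom. The means over the lines, 0.91 ± 0.27 for IFNg (adjusted p = 0.00513) and 0.64 ± 0.21 for IFNb (adjusted p = 0.0139), therefore rest on 3 lines and 2 lines. The IFNg mean was not called without replicate 1 or 3 (0.88 and 0.67), nor the IFNb mean without replicate 1 (0.47). The span of C2 overlaps Zbtb12 on the opposite strand, and the strand setting of the quantification is not given in the sources used here. The genes most like C2 over the 24 groups were Gstm6 (r = 0.916), Paqr6 (0.907) and Akap12 (0.906).

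C3 (chr17:57203970-57228136, minus strand), the component on which the pathways meet, rose with IFNg in 5 lines and with IFNb in 0 (edgeR, with 0 also at an unadjusted p under 0.05, by DESeq2 and by limma-voom). KPC.2 had 798, 771 and 732 CPM with IFNg, 215, 187 and 201 CPM with IFNb and 249, 356 and 258 CPM in NS cells. Renca had 319, 292 and 312 CPM with IFNg, 138, 144 and 140 CPM with IFNb and 181 and 198 CPM in NS cells. In both lines every IFNg library was above and every IFNb library below all NS libraries. The log2 fold changes with IFNg were 1.41 ± 0.08 in KPC.2 and 0.70 ± 0.09 in Renca, and C3 fell with IFNb by 0.53 in KPC.2 (SE 0.09, adjusted p = 7.37e-06) and by 0.43 in Renca (SE 0.09, adjusted p = 0.000154). The fall in KPC.2 was not called without replicate 2 (-0.24), nor that in Renca without replicate 3 (-0.36).

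Outside these lines C3 was low. In B16.1 it had 10.6, 13.2 and 10.8 CPM with IFNg, a single count over the 3 IFNb libraries and a single count over the 3 NS libraries. The ratio of 293 IFNg counts to 1 NS count was 298 after scaling, with a counting interval of 53.0 to 11796. YUMMER1.7 had 4.19, 3.21 and 4.37 CPM with IFNg, 0.481, 0.807 and 0.797 CPM with IFNb and 0.828, 1.08 and 0.707 CPM in NS cells, and LLC had 2.22 and 2.003 CPM with IFNg, 0.168, 0.113 and 0.292 CPM with IFNb and 0.513, 0.271 and 0.373 CPM in NS cells. IFNg libraries were above all others in both lines, by 2.14 ± 0.33 in YUMMER1.7 and 2.45 ± 0.34 in LLC against NS. In CT26.2, MC38.7 and Panc02.3, C3 averaged at most 1.12 CPM in a group and no contrast passed.

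On the mean of the lines C3 changed by 1.54 ± 0.23 with IFNg (adjusted p = 7.04e-08) and by -0.67 ± 0.35 with IFNb (adjusted p = 0.166). DESeq2 and limma-voom called the IFNb mean as a fall, with log2 fold changes of -0.67 and -0.63. The IFNb response of C3 did not pass the test for a difference between lines (adjusted p = 0.807), which does not show that the lines were alike. The genes most like C3 over the 24 groups were Slco2a1 (r = 0.965), Shroom3 (0.954) and Lamb3 (0.953).

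Cfb (chr17:34856374-34862518, minus strand), the protease of the alternative C3 convertase, rose on the mean of the lines with both cytokines, by 1.42 ± 0.11 with IFNg and 0.84 ± 0.09 with IFNb (adjusted p = 2.87e-17 and 1.04e-10). KPC.2 had 814, 826 and 794 CPM with IFNg, 781, 802 and 711 CPM with IFNb and 419, 438 and 375 CPM in NS cells. Both cytokines stood above NS (0.98 ± 0.08 for IFNg and 0.91 ± 0.08 for IFNb) and overlapped each other (0.07 ± 0.08, adjusted p = 0.593). Renca had 47.9, 56.5 and 53.5 CPM with IFNg, 26.0, 29.1 and 28.7 CPM with IFNb and 7.83 and 6.43 CPM in NS cells, with all 3 groups apart (2.88 ± 0.14 for IFNg and 1.95 ± 0.15 for IFNb).

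B16.1 and YUMMER1.7 had an IFNg rise of Cfb with IFNb libraries inside or around the NS range. B16.1 had 13.6, 15.5 and 16.4 CPM with IFNg, 3.005, 3.71 and 5.38 CPM with IFNb and 4.36, 4.19 and 3.12 CPM in NS cells, and YUMMER1.7 had 14.9, 14.4 and 10.3 CPM with IFNg, 2.24, 2.65 and 3.19 CPM with IFNb and 3.11, 4.19 and 1.24 CPM in NS cells. The IFNg changes were 1.98 ± 0.17 in B16.1 and 2.32 ± 0.19 in YUMMER1.7. CT26.2 had 5.48, 5.23 and 6.59 CPM with IFNg, 5.18, 4.81 and 3.155 CPM with IFNb and 3.16, 4.95 and 2.32 CPM in NS cells. Its IFNg libraries were also the highest, but the change did not pass (0.82 ± 0.29, adjusted p = 0.0617). LLC again had the reverse order, with 4.04 and 4.65 CPM with IFNg, 11.4, 11.8 and 9.51 CPM with IFNb and 2.93, 3.58 and 3.10 CPM in NS cells. There Cfb rose with IFNb (1.73 ± 0.16), the IFNg change did not pass (0.44 ± 0.18, adjusted p = 0.128), and IFNg was below IFNb (-1.29 ± 0.15, adjusted p = 5.93e-10).

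Panc02.3 had the lowest Cfb without cytokine (0.450 ± 0.183 CPM, SD), and there Cfb rose with IFNg (1.998 ± 0.57) and IFNb (1.60 ± 0.50, adjusted p = 0.041). The IFNb call was lost without replicate 1, 2 or 3 (1.60, 1.89 and 1.31) and with the line fitted alone (1.58), and the IFNg call without replicate 1 (1.96). MC38.7 had 2.83, 3.10 and 3.12 CPM with IFNg, 3.15, 3.08 and 3.52 CPM with IFNb and 3.66, 2.94 and 2.52 CPM in NS cells, overlapping groups with no contrast past the test. Of the 31-base words of Cfb transcripts, 75.5% occur also in Gm20547, a locus that spans Cfb and part of C2, as do 40.2% of those of C2. Gm20547 held at most 23 counts in any group, against 17877 for Cfb and 15840 for C2. The genes most like Cfb over the 24 groups were Pde6a (r = 0.932), Nr1i2 (0.926) and Ly6g2 (0.922), and its r with C3 was 0.825.

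**Figure D3:**
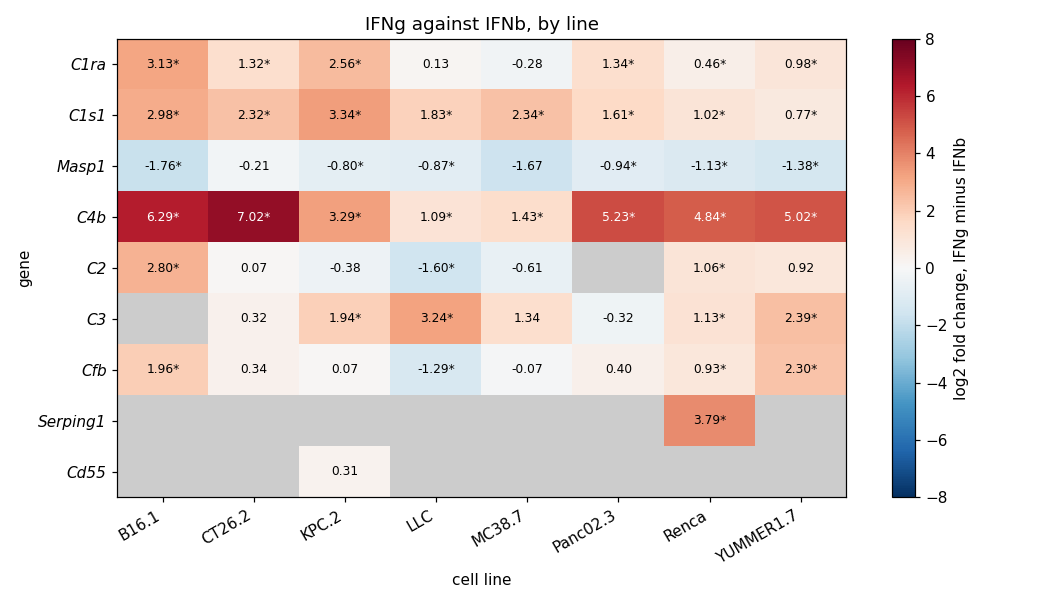
Log2 fold change of IFNg over IFNb in each line (columns) for the 9 genes (rows), with red for higher with IFNg, an asterisk for an adjusted p under 0.05 and grey where a group held 3 or fewer counts. C4b and C1s1 are positive with an asterisk in all 8 lines. LLC is the line in which C2 and Cfb are negative with an asterisk (-1.60 and -1.29). Each cytokine was given at a single dose, so kind and strength of stimulus cannot be told apart.

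Serping1 (chr2:84765387-84775444, minus strand), which encodes C1 inhibitor, was at or near 0 without IFNg in 7 lines and abundant in Renca. Renca had 152, 180 and 178 CPM with IFNg, 11.9, 13.6 and 11.2 CPM with IFNb and 10.1 and 10.9 CPM in NS cells. The IFNg libraries stood apart (4.02 ± 0.17, adjusted p = 8.37e-20), and the IFNb change did not pass (0.22 ± 0.18, adjusted p = 0.515). In KPC.2, Serping1 had 9.41, 12.5 and 10.6 CPM with IFNg and 0 counts in all IFNb and NS libraries. Against a floor of 3 counts over the NS group this was at least 65.9-fold higher with IFNg, on 236 counts.

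The same pattern of 0 counts with IFNb and in NS cells held in Panc02.3 (13 counts with IFNg, at least 10.3-fold higher than NS), YUMMER1.7 (21 counts, at least 9.29-fold) and B16.1 (5 counts, at least 1.69-fold, adjusted p = 0.0469, lost without replicate 2 or 3). CT26.2 had 12 counts with IFNg, 2 with IFNb and 3 in NS cells, a ratio of IFNg to NS of 5.87 with a counting interval of 1.58 to 32.4, which did not pass (adjusted p = 0.0872). LLC had at most 7 counts in a group with no call, and MC38.7 had 0 counts in all 9 libraries. Since Serping1 entered the test through the groups where it is high, its calls describe these libraries and are no separate support for a rise of the group. It was called with IFNg in 5 lines and with IFNb in 0 (edgeR, with 0 also at an unadjusted p under 0.05, by DESeq2 and by limma-voom). Its mean IFNg change over the lines did not pass in edgeR but did in DESeq2 and limma-voom, and with so many groups at 0 the size of the fitted mean depends on the tool. The genes most like Serping1 over the 24 groups were the MHC class II gene H2-Ab1 (r = 0.914), Adgrf3 (0.905) and Erv3 (0.902).

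Cd55 (chr1:130439027-130462744, minus strand) was above 3 counts in KPC.2 and in no other line. There it had 31.4, 28.5 and 32.4 CPM with IFNg, 27.2, 23.97 and 22.5 CPM with IFNb and 35.04, 25.0 and 29.6 CPM in NS cells. The groups lay close together, and the changes were 0.04 ± 0.26 for IFNg and -0.26 ± 0.27 for IFNb (edgeR adjusted p = 0.967 and 0.746), with 0 lines called at an unadjusted p under 0.05, by DESeq2 or by limma-voom. In the other 7 lines no group exceeded 2 counts. Because Cd55 is at 0 in most groups, its likeness to Rps4l, Tff1 and En2 (r = 0.998 each) says that these genes too are high in KPC.2. Cd55b, which shares 11.2% of the 31-base words of Cd55, was too low to test.

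The responses varied by line. The IFNg response differed between lines for 8 of the 9 genes, the IFNb response for 6 and the difference of IFNg from IFNb for 7, where 69.2%, 48.2% and 70.1% of all tested genes differed. The level without cytokine differed between lines for all 9, as it did for 96.5% of all tested genes, and for Serping1 and Cd55 this follows from how they entered the test. Without these 2 genes the counts were 7 of 7 for the IFNg response, 6 for the IFNb response, 7 for the difference of IFNg from IFNb and 7 for the level without cytokine. Of the 9 genes, 7 rose with IFNg in B16.1 and in Renca, 6 in KPC.2, 5 in LLC, Panc02.3 and YUMMER1.7, 4 in CT26.2 and 3 in MC38.7, beside 27.6%, 6.04%, 13.8%, 6.65%, 23.2%, 9.79%, 4.97% and 3.89% of all tested genes in the same order of lines. The counts for B16.1, Renca, KPC.2, Panc02.3 and YUMMER1.7 include Serping1. Since it entered the test through groups where it is high, the order of the lines by these counts is no separate result. With IFNb 5 rose in LLC and Renca, 4 in B16.1 and KPC.2, 3 in Panc02.3, 2 in CT26.2, 1 in MC38.7 and 0 in YUMMER1.7 (0 there also at an unadjusted p under 0.05, by DESeq2 and by limma-voom), beside 17.6%, 7.1%, 14.6%, 2.52%, 3.33%, 1.97%, 13.8% and 0.384%. In YUMMER1.7, 3 genes fell with IFNb (C1ra, C1s1 and C4b), where 0.972% of all tested genes did. Falls with IFNb were also called for 2 genes in Renca (C1s1 and C3), 1 in KPC.2 (C3) and 1 in LLC (C1s1), where 6.82%, 1.93% and 21% of all tested genes fell, and for no gene in B16.1, CT26.2, MC38.7 or Panc02.3, where 14.3%, 0.929%, 16.8% and 2.82% did. With IFNg the single gene that fell in B16.1, KPC.2, Panc02.3 and YUMMER1.7 was Masp1, beside 26.5%, 15.8%, 31.6% and 11% of all tested genes, and no gene of the list was called as fallen in CT26.2, LLC, MC38.7 or Renca, beside 3.86%, 4.6%, 0.886% and 5.16%.

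Set against IFNb within each line, IFNg gave more of 7 genes in Renca, 6 in B16.1 and YUMMER1.7, 5 in KPC.2, 4 in Panc02.3, 3 in CT26.2 and LLC and 2 in MC38.7. In that order of lines 5.25%, 26%, 9.09%, 10.9%, 22.6%, 2.51%, 16.8% and 17.8% of all tested genes were higher. The counts for Renca, YUMMER1.7, KPC.2 and Panc02.3 include Serping1, which entered the test through groups where it is high. LLC had 3 genes that were lower with IFNg than with IFNb (Masp1, C2 and Cfb), where 12.5% of all tested genes were, and Masp1 was the single lower gene in B16.1 (24.5%), KPC.2 (9.18%), Panc02.3 (30.4%), Renca (4.19%) and YUMMER1.7 (7.73%). None of the 9 was lower in CT26.2 or MC38.7, where 1.5% and 10.5% of all tested genes were. On the mean of the lines 5 of the 9 were higher and 1 was lower with IFNg than with IFNb, beside 18% and 18.7% of all tested genes.

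KPC.2 and Renca held the highest C3 and Cfb of all lines in each treatment, and KPC.2 had the highest C4b with each cytokine. B16.1 had the highest mean C2 in each treatment, with libraries that overlapped those of Renca under IFNb, and the highest C1ra with IFNg. MC38.7 had the lowest C1ra, C1s1 and Masp1 in each treatment, and C1ra, C1s1 and C4b were the 3 genes that rose in it with IFNg. The leukocyte marker list, which includes the macrophage genes Cd68, Lyz2 and Csf1r, summed to 44.9 to 61.1 CPM in Renca and to 1.60 to 14.9 CPM in the other lines, with Adgre1 at 1 count or fewer in every group. Its part in the Renca levels was not tested.

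The clustered genes could be set beside their neighbours, which were chosen after the data were seen. Between C4b and C2 on chromosome 17 the annotation gives Cyp21a1, Stk19, Dxo, Skiv2l, Nelfe, Cfb, Gm20547 and Zbtb12, with Tnxb and Ehmt2 on the flanks, besides C4a, which was not analysed here. With IFNg, Stk19, a nuclear kinase-like protein, rose on the mean of the lines by 0.42 ± 0.04, and Ehmt2, a histone methyltransferase, fell by 0.09 (SE 0.02). Tnxb, Dxo, Skiv2l, Nelfe and Zbtb12 had mean log2 fold changes between -0.10 and 0.07 that did not pass, and Cyp21a1 and Gm20547 had no usable mean (SE over 1). C4b, Cfb and C2, by comparison, changed by 5.55, 1.42 and 0.91. Single lines of the neighbours did change with IFNg. Tnxb rose in 2 lines, Nelfe rose in 3 and fell in 1, and Zbtb12 rose in 1 and fell in 1. Skiv2l and Cyp21a1 each fell in 1 line. Beside C1ra on chromosome 6, the C1r-like gene C1rl rose with IFNg by 0.36 ± 0.07 on the mean, with a rise in 3 lines and a fall in 1. C1rb, the near copy of C1ra on the other flank, had no usable mean (0.72, SE 6.16) and rose with IFNg in CT26.2 (2.28 ± 0.61) and KPC.2 (3.38 ± 1.07).

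**Figure D4:**
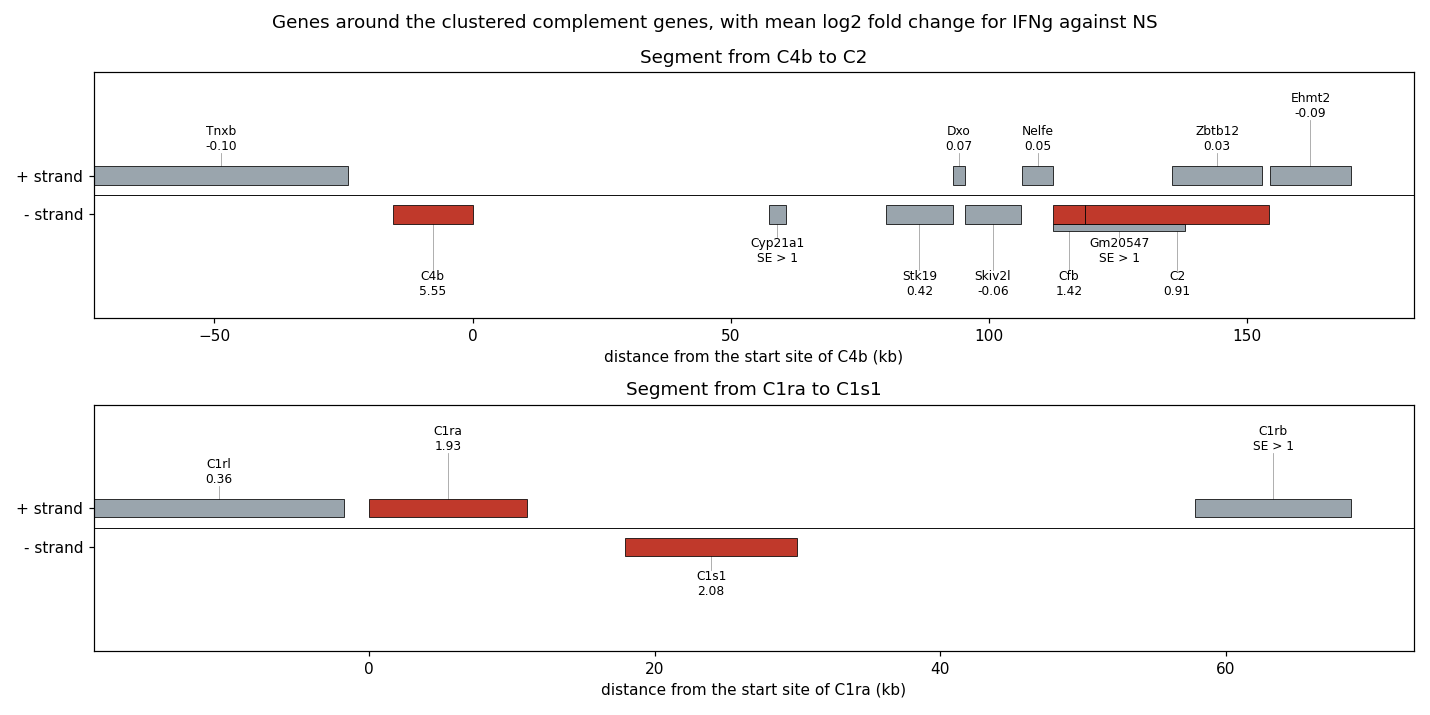
Genes around the clustered complement genes, drawn to scale by distance from the start site of C4b (upper) or C1ra (lower), with the 5 complement genes in red and others in grey. Numbers are mean log2 fold changes of IFNg against NS over the 8 lines, and "SE > 1" stands in for a mean whose SE was over 1 (Cyp21a1, Gm20547 and C1rb); C4a is not drawn. C4b has 5.55, and of the values printed for grey genes the highest is 0.42 (Stk19).

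The rest of the complement system was followed in a list of 46 further genes, of which 45 had a row and 19 could be tested. With IFNg 2 of these rose on the mean of the lines (C1rl and Cr1l) and 1 fell (Clu), where 18.3% and 23.7% of all tested genes did, and with IFNb 1 rose (Cr1l) and 0 fell (0 also at an unadjusted p under 0.05, by DESeq2 and by limma-voom), where 13% and 17.3% did. Their median log2 fold changes were -0.08 with IFNg and -0.09 with IFNb, beside -0.04 and -0.02 over all tested genes. Cr1l, the mouse membrane regulator also called Crry, rose by 0.30 ± 0.03 with IFNg and 0.14 ± 0.03 with IFNb on the mean, and its largest IFNg rise was 1.28 in Panc02.3. Clu, which encodes clusterin, an inhibitor of the terminal complex, fell with IFNg by 0.55 (SE 0.06) on the mean. It averaged 1659 CPM with IFNg, 5017 CPM with IFNb and 6022 CPM in NS cells of KPC.2, with a change of -1.86 for IFNg there, and it rose with IFNg in B16.1 (0.93).

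By role, 1 of the 5 testable classical and lectin pathway genes rose with IFNg, 0 of 1 in the alternative pathway (Cfp), 0 of 2 in the terminal pathway, 0 of 5 soluble regulators (where Clu fell), 1 of 4 membrane regulators and 0 of 2 receptors, beside the 18.3% of all tested genes. These are edgeR calls, and the 0 counts were also 0 at an unadjusted p under 0.05, by DESeq2 and by limma-voom, except for the receptors, where C3ar1 (0.91 ± 0.39) passed unadjusted and by limma-voom. In all, limma-voom called 5 rises in this list with IFNg, against the 2 of edgeR. C1qa and C1qc (chains of the C1q recognition molecule), Mbl1 and Fcnb (recognition molecules of the lectin pathway) and the macrophage receptor Vsig4 had 0 counts in all 70 libraries. Genes too low to test included C1qb, Mbl2, Colec10, Colec11, Cfd, C6, C7, C8a, C8b, C9, Cfhr2, Vtn, Cpn2, Cd55b, Csmd1, C5ar1, C5ar2, Cr2, Itgam and Itgax.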

How the data were processed

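RNA came from Qiagen RNeasy kits and went into strand-specific NEB Ultra II Directional libraries, per the labels' protocols. The submitters' processing notes name Trimmomatic 0.36, kallisto (version not given in the sources used here) and mm10/GRCm38. The authors deposited these values as estimated counts per gene for 70 libraries, not scaled between libraries and whole numbers as deposited. kallisto shares reads of near copies between genes by its model, which can move counts between C1ra and C1rb, C1s1 and C1s2, C4b and C4a, and Cfb, C2 and Gm20547. The strand setting and the summing of transcripts to genes are not given in the sources used here.

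From the estimated counts, edgeR 4.0.16 in R 4.3.3 was run on all 35197 genes, of which 16147 passed its filter (filterByExpr, minimum count 10). A quasi-likelihood model held a mean for each of the 24 groups, with TMM scaling and shared spread (prior degrees of freedom 9.22). Contrasts were IFNg against NS, IFNb against NS and IFNg against IFNb in each line, their equally weighted mean over 8 lines, and F tests of a difference between lines. P-values were adjusted by Benjamini-Hochberg over all tested genes. The SE is the size of the log2 fold change divided by the root of F. The SE of a mean over lines reflects libraries within groups and not how lines vary. Counting intervals are exact, at 95%, and like the floor of 3 counts over a group they cover counting error only. Motif, position and 31-base word searches used RefSeq windows (GRCm38.p6) and the GRCm38 annotation and transcripts.

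The 9 genes, the list of further complement genes and the marker lists were chosen with earlier results of these data known. All 9 genes are named, as are further complement genes past the test on the mean of the lines and those too low to test, except a few genes that are not reported here. The most alike genes are the 3 with the highest Pearson r of mean log2 CPM over the 24 groups. Replicate pairs in the same group differed by more than counting noise in each of 68 pairs, with a chi-square per gene of 1.54 to 16.9. Same-numbered libraries did not deviate together in every pair of any set of 3 pairs, so the numbers were not taken as pairs. Alternatives used DESeq2 1.42.0, limma-voom (limma 3.58.1), RLE scaling, no filter, lines fitted alone, a replicate block, libraries left out and summed near copies. The fit was tested on simulated data.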

Additional observations from a re-analysis of the deposited data

Results flagged for a closer look

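Responses of most of the genes differed between the 8 lines in edgeR's F test of equal within-line changes, adjusted over all tested genes, which is what is listed here. The same test passed for 69.2% of all tested genes with IFNg and 48.2% with IFNb, so a difference between lines is common in these data.

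For IFNg against NS the adjusted p was 7e-33 for C1ra (0.39 in YUMMER1.7 to 4.69 in B16.1 on the log2 scale), 2.3e-31 for C1s1 (-0.18 in YUMMER1.7 to 4.55 in B16.1) and 6e-19 for Masp1 (-1.69 in YUMMER1.7 to 0.41 in CT26.2). It was 8.5e-23 for C4b (1.89 in MC38.7 to 7.73 in B16.1), 1.3e-12 for C2, 1.9e-17 for C3, 2.6e-17 for Cfb (-0.03 in MC38.7 to 2.88 in Renca) and 0.0011 for Serping1, which entered the test through the groups where it is high.

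For IFNb against NS the adjusted p was 1.1e-13 for C1ra (-0.60 in YUMMER1.7 to 2.01 in MC38.7), 7.8e-13 for C1s1 (-0.95 in YUMMER1.7 to 1.57 in B16.1), 8.9e-11 for Masp1, 1.3e-16 for C4b (-0.63 in YUMMER1.7 to 2.41 in Renca), 3e-20 for C2 (with 3.92 in LLC) and 3.2e-10 for Cfb (0.02 in B16.1 and YUMMER1.7 to 1.95 in Renca). YUMMER1.7 stands at the low end for C1ra, C1s1 and C4b, and it is also the line with the lowest Isg15 change with IFNb (-0.20) and the highest mean Isg15 level in NS cells (644 CPM). Whether these are linked was not tested.

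For IFNg against IFNb the adjusted p was 4.3e-29 for C1ra, 9.6e-23 for C1s1, 1e-12 for Masp1, 2.1e-26 for C4b, 4.2e-29 for C2 (-1.60 in LLC to 2.80 in B16.1), 4.5e-15 for C3 and 4.1e-20 for Cfb (-1.29 in LLC to 2.298 in YUMMER1.7). LLC had the largest Isg15 change with IFNb (9.24) and is the line in which IFNb gave more C2 and Cfb than IFNg. Isg15 also rose with IFNb by 7.81 in KPC.2, 6.37 in B16.1 and 6.13 in MC38.7, where neither C2 nor Cfb was called lower with IFNg. A link between the Isg15 change and the order of the cytokines was not tested. That order is known only for the single dose of each cytokine used here. Groups of 2 or 3 libraries are too small for a search for single outlying libraries.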

How the results depend on the processing

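Of 148 single changes recomputed under up to 11 alternatives (1594 values), 1524 kept their direction and their side of the threshold, 57 lost the call, 6 gained it and 7 changed sign. RLE scaling, no filter on low counts, near copies summed (C1ra with C1rb, C1s1 with C1s2, Cd55 with Cd55b) and leaving out the shallow KPC.2 library with IFNb changed none of the 148. The planned sum of C4b with C4a was not run, since C4a was not analysed here, and fits of each line alone give no mean over lines. Fits without replicate 1 or 3 leave LLC with IFNg a single library, and those without replicate 2 or 3 leave Renca NS one, each assumed to vary like the other groups.

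The sign changes were in means that passed in no fit with either sign: C1s1 with IFNb (-0.018 to 0.226 without replicate 1, 2 or 3), Serping1 with IFNb (0.082 in DESeq2, 0.19 in limma-voom and -0.551 to 0.083 without replicate 1, 2 or 3) and Cd55 (without replicate 1, 2 or 3, -0.373 to 0.034 with IFNg and -0.041 to 0.270 with IFNb). Without replicate 1, 2 or 3 of every group, 0 to 1 of the 9 genes fell with IFNg on the mean, 2 to 4 pairs of line and gene fell with IFNb against 7 with all libraries, and 1 to 2 further complement genes fell with IFNg against 1. Of the 9 genes, 1 fell with IFNb on the mean in DESeq2 and 1 in limma-voom, against 0 in edgeR. Limma-voom called 5 rises and 2 falls with IFNg and 2 rises with IFNb among the further complement genes, against 2, 1 and 1. The cause of these shifts was not tested, but leaving out a replicate also leaves fewer libraries.

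Same-numbered libraries had correlations of -0.36 to 0.25 in their deviations, over 0.1 in 10 of 68 pairs and in every pair of 0 of the 20 sets with 3 pairs, so they share only a number. With a replicate block, 3 calls were lost (C1ra with IFNb in Renca at 0.30, C1s1 with IFNb in Renca at -0.31 and C1ra with IFNg in YUMMER1.7 at 0.37), and 145 of the 148 changes kept their call. Most groups of Serping1 and Cd55 held 3 or fewer counts, so few of their changes can be measured. Both had 0 counts in MC38.7 with IFNg, the group with the largest total (75811551 counts). The part of depth in these low counts was not tested.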
